A study of Homo sapiens with 29 samples.

Results

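SR splicing factors were examined as 10 genes, SRSF1, SRSF2, SRSF3, SRSF4, SRSF5, SRSF6, SRSF7, SRSF11, TRA2A and TRA2B, taken by name from the 35579 genes of the transcript table. They hold 113 of its 169797 annotated transcripts, and every gene level is the sum of that gene's transcripts in TPM, a unit that corrects reads for transcript length and scales each library to the same total. The RNA came from PC9, an EGFR-mutant lung adenocarcinoma line, as parental cells (PAR), as cells whose AXL receptor kinase was knocked out with CRISPR/Cas9 (KO), and as KO cells transduced by lentivirus with AXL that was wild type (WT), kinase dead (KD) or changed at a single tyrosine (Y634F, Y643F, Y698F, Y726F, Y750F, Y821F). Each of these 10 lines was left untreated, was given the EGFR inhibitor erlotinib at 1 µM for 24 h (E), or was given erlotinib together with the AXL-activating antibody AF154 (300 ng/mL) for 24 h (EA), after seeding 300000 cells. There were 10 untreated, 10 E and 9 EA libraries, with 1 library per line and treatment, so the lines serve as the replicates of a treatment and the levels of a single line have no replicate. The transduced lines were sorted populations that differed in how much AXL they made, and every line but PAR carries the knockout. By the paper's account only a minority of the transduced cells expressed AXL, and these lines kept KO cells. It also reports less activated AXL in WT and the tyrosine mutants than in PAR. A KO library with EA was not analysed here.

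SR proteins bind short sequences in exons through RNA recognition motifs and recruit the spliceosome through a domain rich in arginine and serine, which SRPK and CLK kinases phosphorylate. TRA2A and TRA2B are relatives of the same build, the counterparts of the fly gene transformer-2. Most SR genes control their own dose by splicing: they can include a poison exon or keep an intron that brings in an early stop codon, and such RNA is either degraded by nonsense-mediated decay or held in the nucleus and makes no full-length protein. The annotation used here, GENCODE 29, marks these transcripts by type, as decay transcripts and as retained intron transcripts, beside the coding ones. A decay transcript's level is what is left after degradation, so it does not give the rate at which it was made.

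The sequences that carry the early stop are shown for the 4 genes whose main decay transcript gains it from bases absent from the coding transcript it is compared with below. Each runs from the start of those bases to the stop codon, which is in capitals (GRCh38; SRSF3-203 at chr6:36599821-36599854, plus strand; SRSF7-208 at chr2:38749516-38749528, minus strand; SRSF6-202 at chr20:43459153-43459304, plus strand; TRA2B-206 at chr3:185931772-185931852, minus strand).
SRSF3-203: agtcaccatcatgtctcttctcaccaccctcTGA
SRSF7-208: gtatttatttTAA
SRSF6-202: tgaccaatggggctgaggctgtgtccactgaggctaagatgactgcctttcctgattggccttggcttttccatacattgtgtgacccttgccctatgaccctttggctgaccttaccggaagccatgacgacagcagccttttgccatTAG
TRA2B-206: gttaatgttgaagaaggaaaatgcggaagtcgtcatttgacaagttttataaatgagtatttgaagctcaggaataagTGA
The exons that hold these stops are 456 bases long in SRSF3, 268 in SRSF6 and 276 in TRA2B, all of them absent from the coding transcripts, whereas in SRSF7 the stop lies in a single exon of 1127 bases that begins as a coding exon and runs on into the intron, with 875 of its bases absent from the coding transcripts. Counted in codons, SRSF3-203 could code for 124 residues against 164 in the coding SRSF3-208, SRSF7-208 for 132 against 235 in SRSF7-202, SRSF6-202 for 135 against 344 in SRSF6-201, and TRA2B-206 for 38 against 288 in TRA2B-205. The SRSF2 decay transcripts differ in kind, since they keep the whole reading frame of 221 codons and place the last splice junction 105 (SRSF2-208) or 209 bases (SRSF2-204) behind its stop, against 7 bases in the coding SRSF2-202, and in SRSF1 the decay transcript SRSF1-206 ends its reading frame after 65 codons. SRSF3-203, SRSF7-208 and TRA2B-206 have 0 bases that no other transcript of their gene holds, so their levels rest on how kallisto split shared reads.

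All 10 genes were well expressed. On the plus strand of GRCh38 lie SRSF3 at chr6:36594353-36605600, SRSF5 at chr14:69726900-69772005, SRSF6 at chr20:43457928-43464247 and SRSF11 at chr1:70205682-70253052, and on the minus strand SRSF1 at chr17:58003360-58007346, SRSF2 at chr17:76734115-76737374, SRSF4 at chr1:29147743-29181987, SRSF7 at chr2:38743599-38751494, TRA2A at chr7:23504780-23532041 and TRA2B at chr3:185915906-185938136. In untreated cells SRSF2 was highest at 363 ± 33.0 TPM (SD, n = 10 lines), followed by SRSF3 at 324 ± 26.4, SRSF1 at 307 ± 32.9, TRA2B at 186 ± 12.5, SRSF5 at 161 ± 17.6, SRSF7 at 130 ± 13.2, SRSF6 at 129 ± 7.96, SRSF11 at 117 ± 5.48, SRSF4 at 63.5 ± 9.40 and TRA2A at 59.6 ± 7.62. Neighbours in this order were not always apart: SRSF7 exceeded SRSF6 in 4 of 10 lines, SRSF4 exceeded TRA2A in 7 of 10, and SRSF2 exceeded SRSF3 and SRSF3 exceeded SRSF1 in 8 of 10 each. Under erlotinib SRSF3 stood highest at 217 ± 22 TPM, SRSF5 (189 ± 25.4), SRSF2 (188 ± 28.1) and SRSF1 (184 ± 23.3) lay together below it, and TRA2B moved from the fourth to the seventh place.

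The 6 epithelial markers were expressed in all 29 libraries (EPCAM 286 to 439 TPM, KRT7 3164 to 6468 TPM), while of the markers of other cells CD3E was at 0 in 29 libraries, HBB in 28 and COL3A1 in 22, PTPRC reached at most 1.0 TPM, and COL1A1 (15.3 to 70.9 TPM), CD68 (27.8 to 68.1 TPM) and PECAM1 (1.03 to 9.60 TPM) were detected. AXL RNA was 79.3 and 92.4 TPM in the KO libraries and 217 to 852 TPM in the others; the knockout guide cut within the kinase domain, and an RNA level does not show how much protein was left. Mitochondrial genes took 11.4 to 14.4% of TPM in untreated, 12.3 to 17.4% in E and 12.9 to 17.4% in EA libraries, and with these genes left out and TPM rescaled, 9 members were still called in the erlotinib comparison. Decay and retained intron transcripts of all genes together made up 7.65 to 9.27% of the remaining TPM in untreated libraries. They made up 7.70 to 9.01% in E and 7.81 to 9.09% in EA libraries, so the ranges overlapped. Within lines, this share was higher with E than untreated in every line but PAR and WT. It went from 8.37 to 9.01% in Y643F and from 7.65 to 7.97% in KO. In PAR, which had the highest untreated share, it fell from 9.27 to 7.89%. The change of this share within lines was not tested.

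Erlotinib lowered the RNA of 6 of the 10 factors and raised that of 3, at an adjusted p under 0.05 (limma on log2(TPM + 1) with the line as block, Benjamini-Hochberg over the 9085 genes tested). Of all genes tested 79.0% passed this threshold, 36.4% higher and 42.6% lower, so that passing it is common here. A fall of at least 0.5 on the log2 scale was seen in 5 of 10 members and in 20.3% of all genes. The members' median log2 difference was -0.47 against -0.04 over all genes. In bulk RNA, fewer cells of a type and less RNA per cell cannot be told apart, and TPM gives a share of the RNA, not an amount per cell.

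**Figure D1:**
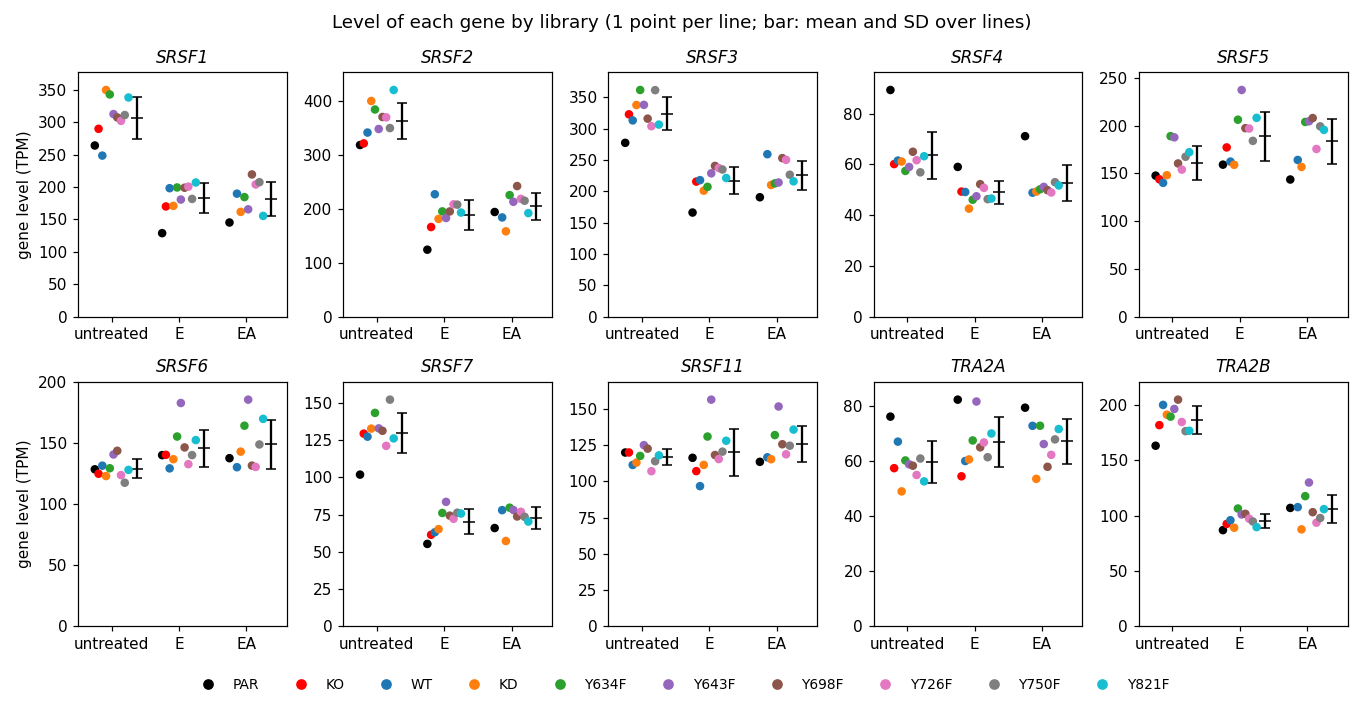
Level of each of the 10 genes in TPM (y axis, from 0) in the untreated, E and EA libraries, 1 coloured point per line, with the mean and SD over lines as a bar. In SRSF1, SRSF2, SRSF3, SRSF7 and TRA2B every E library lies below every untreated library, and the EA libraries lie at about the height of the E libraries.

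TRA2B, which promotes the inclusion of exons such as that of SMN2, ranged from 163 to 205 TPM in untreated libraries (median 187) and from 86.8 to 106 TPM in E libraries (median 95.2). The groups did not overlap. The log2 difference was -0.96 ± 0.03 (SE, adjusted p = 1.04e-12), which brought the level to 0.515 of untreated, and single lines lay between -1.09 (KD) and -0.83 (Y634F).

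SRSF2, a factor that stays in the nucleus, ranged from 319 to 421 TPM untreated (median 360.0) and from 124 to 227 TPM with E (median 194). Again the groups did not overlap, with PAR lowest in both. Its log2 difference was -0.95 ± 0.06 (adjusted p = 1.09e-09), from -0.59 in WT to -1.35 in PAR. The SRSF2 locus overlaps MFSD11 on the opposite strand and the microRNA gene MIR636 on its own strand, and how strand was used in the counting is not given in the sources used here.

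SRSF7 and SRSF3 shuttle between nucleus and cytoplasm and take part in mRNA export. SRSF7 went from 102 to 152 TPM untreated (median 130.3) to 55.3 to 83.5 TPM with E (median 73.2), and SRSF3 from 277 to 361 TPM (median 319) to 166 to 240.3 TPM (median 219). Neither gene's groups overlapped. The log2 differences were -0.88 ± 0.04 for SRSF7 (adjusted p = 8.52e-11) and -0.58 ± 0.04 for SRSF3 (adjusted p = 1.13e-08), lower in 10 of 10 lines in each.

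SRSF1, the founding member and a known oncogene product, ranged from 248 to 350 TPM untreated (median 309) and from 129 to 207 TPM with E (median 189.9), without overlap. Its log2 difference was -0.74 ± 0.06 (adjusted p = 1.34e-08). The lines differed more here, from -1.03 in PAR and in KD to -0.32 in WT, the line with the lowest untreated level. An unnamed coding gene on the same strand overlaps the SRSF1 locus. Groups that do not overlap were thus found for 5 of 10 members, against 36.5% of all genes tested.

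SRSF4, SRSF5 and SRSF6, like SRSF1, hold a pair of RNA recognition motifs, and their levels moved in different directions. SRSF4 was at 56.9 to 89.3 TPM untreated (median 61.3) and 42.6 to 59.0 TPM with E (median 48.3). PAR was highest in both groups, and its E library overlapped the lower untreated ones. The gene fell in 10 of 10 lines, with a log2 difference of -0.36 ± 0.04 (adjusted p = 6.87e-07).

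SRSF5 went the other way, from 140.2 to 189 TPM untreated (median 157) to 159 to 238 TPM with E (median 190.7), with overlapping groups. It was higher in 10 of 10 lines, by 0.22 ± 0.03 on the log2 scale (adjusted p = 2.05e-05). SRSF6 was at 117 to 144 TPM untreated (median 128) and 129 to 183 TPM with E (median 140.2), also overlapping, and was higher in 9 of 10 lines by 0.17 ± 0.04 (adjusted p = 0.000898). Both rises were smaller than 0.36, the median size of change over all genes.

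TRA2A, the paralog of TRA2B, was at 49.0 to 76.2 TPM untreated (median 58.6) and 54.5 to 82.4 TPM with E (median 65.9), with overlap. It was higher in 8 of 10 lines by 0.17 ± 0.06 (adjusted p = 0.0170, and 0.0551 without the line as block). SRSF11, an SR-related protein with a single RNA recognition motif, was at 107 to 125 TPM untreated (median 118) and 96.6 to 156 TPM with E (median 117). It did not pass the test, at 0.03 ± 0.05 (adjusted p = 0.558) and higher in 5 of 10 lines, and an antisense gene overlaps its locus. The pair of TRA2 genes therefore passed the test in opposite directions.

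**Figure D2:**
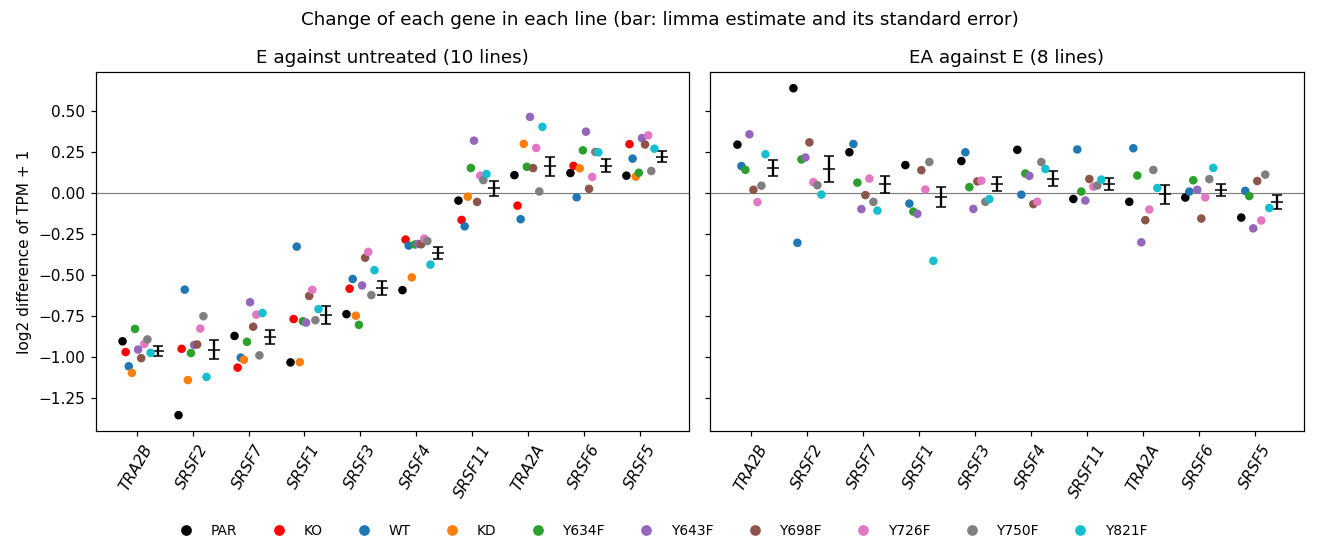
Log2 difference of TPM + 1 for each gene (y axis) in each line (coloured points), with the limma estimate and its standard error as a bar; left, E against untreated in 10 lines, and right, EA against E in 8 lines. On the left 6 genes lie below 0 in every line, from TRA2B at -0.96 to SRSF4 at -0.36, and on the right the estimates lie between -0.05 and 0.15.

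The changes were carried unevenly by the transcripts. Of the 113 member transcripts 80 had a mean of at least 1 TPM and were tested on log2(TPM + 0.1), and 46 passed an adjusted p under 0.05, 11 higher and 35 lower. Over all 47921 transcripts tested 42.8% passed, 21.5% higher and 21.3% lower. Among the members' coding transcripts 20 of 29 fell and 3 rose, among the decay transcripts 5 of 13 fell and 1 rose, among the retained intron transcripts 9 of 25 fell and 3 rose, and among the processed transcripts, which have no annotated reading frame, 1 of 13 fell and 4 rose. Over all genes 26.1% of coding, 17.0% of decay, 12.5% of retained intron and 13.6% of processed transcripts fell, and 23.3%, 15.5%, 20.2% and 18.0% rose.

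**Figure D3:**
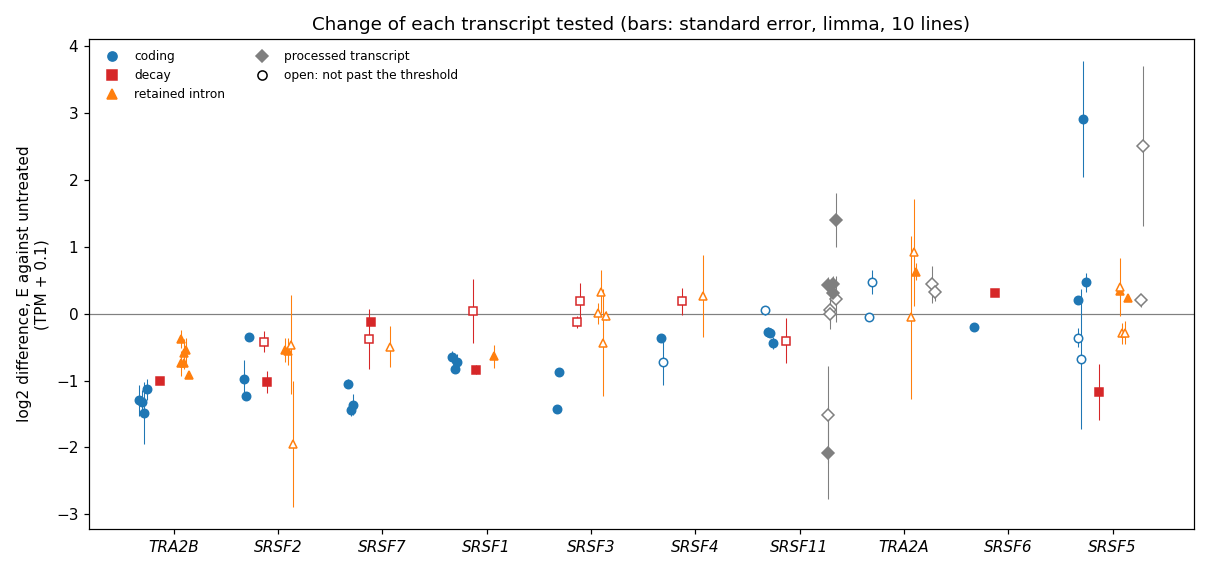
Log2 difference of E against untreated on the TPM + 0.1 scale (y axis) for each of the 80 transcripts tested, by gene, with its standard error; shape and colour give the class, and open symbols did not pass the threshold. All 11 TRA2B transcripts lie below 0, while in SRSF7 and SRSF3 the coding transcripts lie lower than the decay transcripts.

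The balance of the classes within a gene was tested as log2 of the ratio of decay plus retained intron TPM to coding TPM, with 0.5 TPM added to each. In 3 of 10 members, SRSF7, SRSF3 and SRSF6, erlotinib raised this ratio, and in none did it lower the ratio past the threshold. Of the 5764 genes with both classes measured 10.7% passed, 7.11% higher and 3.54% lower. The median of the members' log2 differences was 0.36 and that of all genes 0.09. The median ratio over all genes shifted up by 0.10, and with each library centred on its median the 3 members still passed, at 1.0 for SRSF7 (adjusted p = 0.000174), 0.71 for SRSF3 (0.00134) and 0.40 for SRSF6 (0.0307).

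SRSF7 shifted most. Its decay and retained intron share was 23.7 to 30.6% of the gene's TPM untreated (median 26.0%) and 37.3 to 50.4% with E (median 43.8%), and the groups did not overlap. The log2 ratio rose by 1.10 ± 0.11 (adjusted p = 8.19e-05) in 10 of 10 lines, from 0.77 in WT to 1.35 in KO, a mean gain of 17.2 percentage points. The gain came with a fall of the coding sum from 95.2 ± 10.3 to 39.5 ± 5.14 TPM beside a decay and retained intron sum of 34.5 ± 4.40 and 30.8 ± 4.38 TPM. The coding SRSF7-202 dropped from 53.5 ± 9.08 to 20.0 ± 4.46 TPM (log2 difference -1.43 ± 0.09, lower in 10 of 10 lines), while SRSF7-208, with the stop shown above, moved from 26.7 ± 2.70 to 24.6 ± 3.02 TPM (-0.12 ± 0.04, adjusted p = 0.0315). That small fall of SRSF7-208 missed the threshold without KO, WT, KD, Y634F, Y643F, Y698F, Y726F or Y750F, with adjusted p up to 0.0632, and without the block, at 0.209.

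In SRSF3 the share was 36.7 to 45.4% untreated (median 41.5%) and 53.9 to 59.1% with E (median 55.1%), again without overlap. The log2 ratio rose by 0.81 ± 0.10 (adjusted p = 0.000351) in 10 of 10 lines, by 13.9 percentage points on average. Coding TPM fell from 189 ± 11.7 to 96.4 ± 10.1, lower in 10 of 10 lines, and decay and retained intron TPM were 135 ± 18.4 and 120.4 ± 13 TPM. SRSF3-208 went from 148 ± 10.4 to 81.3 ± 9.94 TPM (-0.87 ± 0.04) and SRSF3-202, with a long 3′ end, from 40.4 ± 2.62 to 15.1 ± 1.96 TPM (-1.42 ± 0.05), both past the threshold. The decay transcript SRSF3-203 did not pass, at 45.0 ± 7.99 and 40.8 ± 4.89 TPM (-0.13 ± 0.09, adjusted p = 0.277). In untreated PAR this transcript stood at 27.1 TPM, below the 36.4 TPM of PAR with E.

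SRSF6 was mostly annotated as decay RNA already in untreated cells, with a share of 67.2 to 71.0% (median 69.5%), and this rose to 74.0 to 79.3% with E (median 75.8%), with no overlap. The log2 ratio rose by 0.50 ± 0.09 (adjusted p = 0.00471) in 10 of 10 lines. Here the classes moved in opposite directions: SRSF6-202 rose from 89.4 ± 5.71 to 111 ± 11.7 TPM (0.31 ± 0.04, higher in 10 of 10 lines), and the coding SRSF6-201 fell from 39.7 ± 3.03 to 34.8 ± 4.36 TPM (-0.19 ± 0.06, adjusted p = 0.0142, lower in 9 of 10). The rise of the gene sum thus lay in the transcript with the early stop. These are the only SRSF6 transcripts in the table, and they also differ at the 3′ end, since SRSF6-201 goes on for 2913 bases that SRSF6-202 lacks; its part in the levels assigned to each was not tested.

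**Figure D4:**
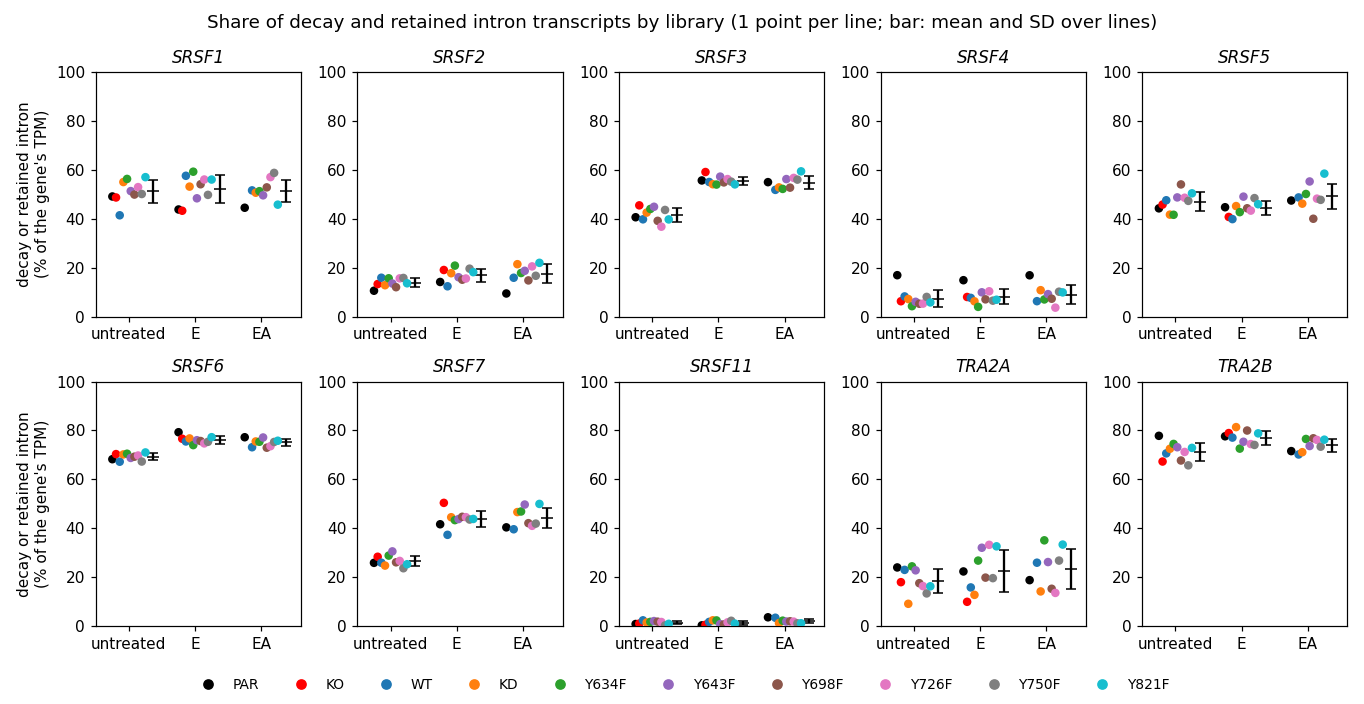
Decay and retained intron transcripts as a percentage of each gene's TPM (y axis, 0 to 100%) in the untreated, E and EA libraries, 1 coloured point per line, with the mean and SD over lines as a bar. The E libraries lie above all untreated libraries in SRSF3, SRSF6 and SRSF7, and PAR stands above the other lines in SRSF4 in all 3 treatments.

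TRA2B was lower in its coding, decay and retained intron RNA. Coding TPM fell from 53.4 ± 8.35 to 22 ± 3.79, decay TPM from 46.4 ± 4.50 to 23.2 ± 2.55 and the decay and retained intron sum from 133 ± 9.27 to 73.4 ± 3.95, and none of these overlapped between untreated and E. All 11 transcripts tested passed the threshold as lower, among them TRA2B-206 (-1.0 ± 0.06), the retained intron transcript TRA2B-213, from 47.4 ± 5.32 to 25.2 ± 2.78 TPM (-0.91 ± 0.05), and the coding TRA2B-203, from 22.3 ± 5.83 to 8.95 ± 2.93 TPM (-1.32 ± 0.17). TRA2B-204, with the largest fall at -1.49 ± 0.47, missed the threshold without Y698F or without Y750F (adjusted p = 0.0513 and 0.0549). The decay and retained intron share was 65.7 to 77.8% untreated and 72.6 to 81.4% with E, with overlap, and the ratio missed the threshold at 0.41 ± 0.12 (adjusted p = 0.0526). It passed without PAR (0.0393), without Y634F (0.0374), without the block (0.0242), with retained intron transcripts alone (0.0357) and with at least 5 TPM required in both classes (0.0266). With each library centred on its median the ratio did not pass, at 0.32 (adjusted p = 0.117). With other single lines left out it did not pass either, with adjusted p up to 0.112.

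In SRSF1 and SRSF2 the coding and the decay sums were both lower with E in 10 of 10 lines, and the ratios did not pass the threshold. SRSF1 coding TPM went from 148 ± 6.67 to 86.6 ± 7.18 and its decay TPM from 70.3 ± 7.26 to 40.3 ± 6.34, neither with overlap, and the ratio differed by 0.05 ± 0.13 (adjusted p = 0.833). Its main coding transcript SRSF1-205, of 201 codons against 248 in SRSF1-201, fell by 0.82 ± 0.03 on the log2 scale, SRSF1-206 by 0.84 ± 0.07 and the retained intron transcript SRSF1-202 by 0.64 ± 0.17, all past the threshold. SRSF2 coding TPM went from 312 ± 28.3 to 157 ± 24.6 without overlap, and the ratio differed by 0.33 ± 0.13 (adjusted p = 0.131), higher in 9 of 10 lines. SRSF2-202 fell from 187 ± 15.9 to 80.0 ± 8.02 TPM (-1.23 ± 0.03) and the decay transcript SRSF2-208 from 17.5 to 9.09 TPM (-1.02 ± 0.17).

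**Figure D5:**
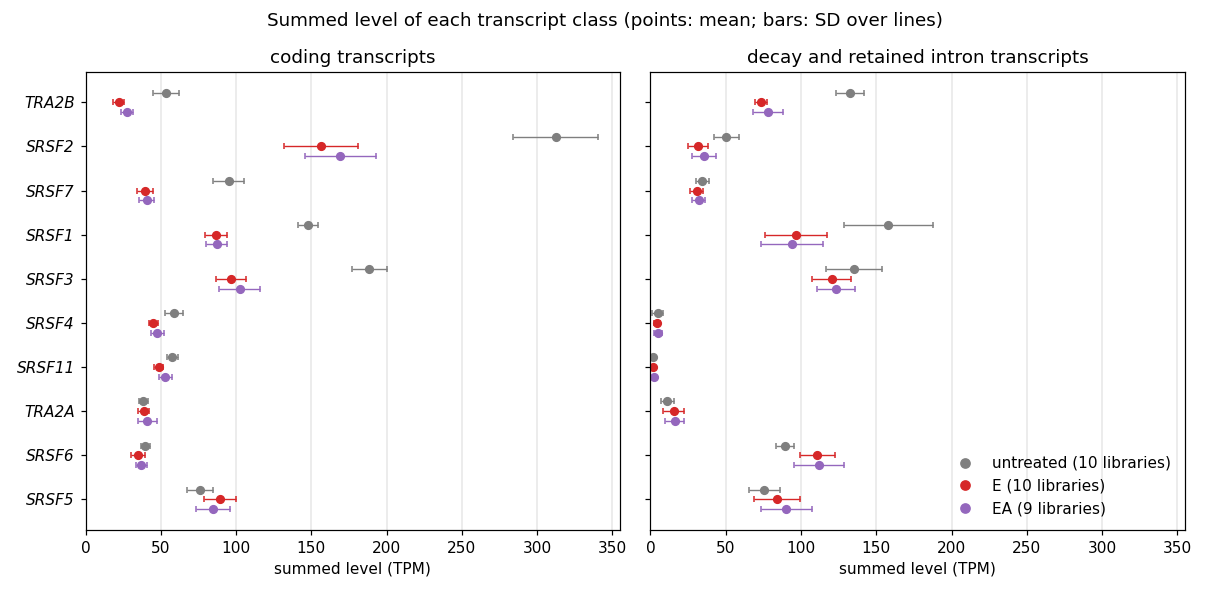
Summed TPM of coding transcripts (left) and of decay and retained intron transcripts (right) for each gene (x axes from 0), as the mean and SD over lines in untreated, E and EA libraries. The coding sums of SRSF7 and SRSF3 fall with E from 95.2 to 39.5 TPM and from 189 to 96.4 TPM, next to smaller differences in their decay and retained intron sums.

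The ratios of SRSF5, SRSF4, SRSF11 and TRA2A did not pass the threshold. SRSF5 rose in its main coding transcript SRSF5-217, from 52.3 ± 6.06 to 60.4 ± 7.12 TPM (0.21 ± 0.06, adjusted p = 0.0188), and in its retained intron transcript SRSF5-212, from 46.2 ± 7.05 to 54.6 ± 9.19 TPM (0.24 ± 0.05, adjusted p = 0.00265), and the ratio differed by -0.08 ± 0.10 (adjusted p = 0.644). Without the block SRSF5-212 missed the threshold (adjusted p = 0.0557), as did SRSF5-204 (0.0535) and SRSF5-211 (0.0880). SRSF5-204 gave the largest rise (2.91 ± 0.87) and SRSF5-211 the largest fall (-1.17 ± 0.42), but SRSF5-204 was listed at 0 in 13 of 29 libraries, so that its difference depends on the 0.1 TPM added, and SRSF5-211 missed the threshold without PAR, KD, Y643F, Y698F or Y726F (adjusted p up to 0.0864).

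SRSF4 was almost wholly coding, and its SRSF4-201 fell from 54.6 ± 4.80 to 42.5 ± 2.68 TPM (-0.36 ± 0.03). In SRSF11 single transcripts passed the test in both directions where the gene sum did not. Its coding sum was lower in 10 of 10 lines, from 57.5 ± 3.69 to 48.7 ± 2.95 TPM, with SRSF11-203 at -0.28 ± 0.05 (adjusted p = 0.000665), while 4 of its processed transcripts rose, led by SRSF11-215 from 2.58 to 6.64 TPM (1.41 ± 0.40, adjusted p = 0.0145). Another processed transcript, SRSF11-216, went from 3.28 to 1.40 TPM (-2.08 ± 0.69) and missed the threshold without KO, KD, Y643F, Y698F or Y750F (adjusted p up to 0.0672). With processed transcripts counted among the noncoding ones, the SRSF11 ratio passed at 0.48 (adjusted p = 0.0101). In TRA2A the coding TRA2A-201 was at 35.7 ± 3.03 and 34.5 ± 3.38 TPM (-0.05 ± 0.04, adjusted p = 0.315), and the retained intron transcript TRA2A-209 rose from 4.89 ± 1.98 to 7.57 ± 2.18 TPM (0.63 ± 0.13, adjusted p = 0.00196) in 9 of 10 lines.

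AF154 on top of erlotinib moved no member past the threshold. This comparison shares its E libraries with the one above. In the 8 lines with kinase-competent AXL, EA against E called 0 of 10 member genes with limma, against 2.36% of all genes (1.88% higher and 0.473% lower). In the transduced lines among these 8, only a minority of the cells expressed AXL, by the paper's account. An unadjusted p under 0.05 was reached by 1 of 10 members and by 1895 of all 9085 genes. That member was TRA2B, at 95.4 ± 6.24 TPM with E and 105 ± 12.6 TPM with EA over all lines (log2 difference 0.15 ± 0.05, adjusted p = 0.106), higher in 7 of 8 lines. SRSF2 differed by 0.15 ± 0.08 (adjusted p = 0.301), with PAR at 0.64 and WT at -0.30. The other 8 lay between -0.05 and 0.09.

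The transcripts and ratios gave the same count. Of 80 member transcripts 0 passed with limma and 10 had an unadjusted p under 0.05, where 0.0% of all 47921 passed and 4662 had an unadjusted p under 0.05. Of the 10 ratios 0 passed and 0 had an unadjusted p under 0.05, where 0.0% of 5764 passed and 368 had an unadjusted p under 0.05. The share of decay and retained intron RNA with EA was 39.6 to 50.0% in SRSF7, 51.8 to 59.4% in SRSF3 and 73.0 to 77.2% in SRSF6, above the untreated range in each. In KD, whose receptor has no kinase activity, the EA and E libraries were compared on the log2 scale with no replicate. EA minus E was -0.19 in SRSF2 and SRSF7, -0.18 in TRA2A, -0.08 in SRSF1 and -0.02 in TRA2B and SRSF5. The difference in KD was 0.21 in SRSF4, 0.06 in SRSF3 and SRSF6, and 0.05 in SRSF11.

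Between lines, PAR took the extreme place most often, which is described only, since each line has 1 library per treatment. PAR was highest of all lines in every treatment for SRSF4 (89.3 TPM untreated, the other lines 56.9 to 65.0; 71.1 TPM with EA, the others 48.8 to 53.0) and for TRA2A (76.2 TPM untreated, the others 49.0 to 67.1). It was lowest in every treatment for SRSF3 and in 2 of 3 treatments for SRSF1, SRSF2, SRSF7 and TRA2B. The retained intron transcript TRA2A-209 stood at 10.4 TPM in untreated PAR and at most 5.07 TPM in the other untreated lines. The share of decay and retained intron RNA of SRSF4 was 16.9% in untreated PAR, with a median of 6.15% over all untreated lines. Untreated PAR also had the highest retained intron share over all genes of the 29 libraries, 5.34% of TPM. PAR with E had the lowest such share of the E libraries, 4.21%, and an SRSF4 share of 14.9%. The part of this library-wide difference in the TRA2A-209 and SRSF4 values was not tested. Leaving PAR out changed none of the counts of called genes, transcripts or ratios by more than 1.5 times.

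The spread between untreated lines was smallest for SRSF11 among the members. The SD of log2(TPM + 1) over the 10 untreated lines was 0.07 for SRSF11, higher than in 3.49% of genes, 0.09 for SRSF6 and 0.10 for TRA2B, against a median of 0.15 over all genes. With E it was 0.18 for SRSF11, higher than in 64.8% of genes, and with EA 0.13, higher than in 28.9%. Across the 29 libraries, which share treatments and lines, SRSF1, SRSF2, SRSF3, SRSF7 and TRA2B rose and fell together, with Pearson r from 0.86 to 0.95 between pairs. With the treatment means taken out, r was between 0.54 and 0.78 among SRSF1, SRSF2, SRSF3 and SRSF7 (0.21 to 0.67 without PAR), and between TRA2B and these genes it was 0.09 with SRSF1, 0.16 with SRSF3, 0.38 with SRSF2 and 0.55 with SRSF7 (without PAR -0.12, -0.08, 0.26 and 0.45). SRSF6 and SRSF11 went together in both (0.81 and 0.85). Y643F was the highest line for both genes with E and with EA, and their r without Y643F was not computed. The r of -0.61 between SRSF3 and SRSF4 once treatment was taken out rested on PAR and was -0.08 without PAR. Leaving PAR out of these correlations was chosen after seeing the data. The genes outside the set whose levels were most like the members' mean profile over the 29 libraries were XPO1 (r = 0.90), PRPF38B (0.90), ZNF639 (0.89), U2SURP (0.89) and MST1R (0.88). These values hold the shift between treatments, and within the untreated libraries alone r was 0.29 to 0.60 for the same 5 genes, against 0.80 to 0.91 within E and 0.78 to 0.92 within EA.

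The wider splicing machinery was read from lists, whose counts stand against 36.4% of all genes higher and 42.6% lower, with a median of -0.04. Of the other SR proteins 2 of 3 tested fell with erlotinib, SRSF10 from 100.1 ± 9.08 to 58.4 ± 5.37 TPM (-0.77 ± 0.05) and SRSF9 (-0.37 ± 0.04), with a list median of -0.37. Of the kinases and the importer that act on SR proteins 3 of 8 rose and 2 fell, with a median of 0.12, so that the share that rose was near that of all genes: CLK4 (0.54 ± 0.07) and CLK2 (0.26 ± 0.06), kinases within the nucleus, rose, and SRPK1 (-0.49 ± 0.05), the kinase of the cytoplasm, and TNPO3 (-0.21 ± 0.04), which imports SR proteins, fell.

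Of 23 SR-related proteins 2 rose and 15 fell, with a median of -0.25 beside the -0.04 of all genes, of which 42.6% fell. PNN (-0.98 ± 0.06) and U2AF1 (-0.78 ± 0.17), a subunit of the factor that marks the 3′ splice site, fell most, and ACIN1 (0.43 ± 0.04) and RBM39 (0.22 ± 0.04) rose. The hnRNPs, RNA-binding proteins that often oppose SR proteins at exons, fell in 20 of 26 and rose in 4, with a median of -0.49, from HNRNPAB (-1.22 ± 0.06) and HNRNPD (-0.87 ± 0.04) to HNRNPH1 (0.22 ± 0.06) and HNRNPLL (0.27 ± 0.05). Among 19 factors of nonsense-mediated decay 11 fell and 3 rose, with a median of -0.15: the release factors GSPT1 (-0.95 ± 0.04) and ETF1 (-0.61 ± 0.04) fell most, and SMG8 (0.25 ± 0.05) and SMG6 (0.24 ± 0.06) rose. The part of these genes in the levels of the decay transcripts was not tested. With EA against E, PNN (0.29 ± 0.06, adjusted p = 0.0323), SRRM1 (0.26 ± 0.06, 0.0458), THRAP3 (0.14 ± 0.03, 0.0442) and GSPT1 (0.20 ± 0.04, 0.0359) passed as higher, and no other gene of these lists did.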

How the data were processed

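RNA was from PC9 lines, and sequencing and alignment were done for the authors by a company. The deposited table holds TPM per transcript for each library, made by the authors with kallisto on GRCh38, per the labels; its version, annotation, strand setting and read depth are not given in the sources used here. TPM keep no depth, so no counting interval was computed. The authors' removal of genes under 10 TPM was not applied to this table.

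Transcripts were matched to GENCODE 29 (169797 of 188753, holding 97.0 to 97.4% of TPM) and summed per gene and per class. Samples were grouped by treatment, and lines were the replicates. limma 3.58.1 (R 4.3.3; lmFit, eBayes with trend) was fitted with the line as block on log2(TPM + 1) for genes that averaged 10 TPM or more, on log2(TPM + 0.1) for transcripts that averaged 1 TPM or more, and on log2 ratios of decay and retained intron to coding TPM (0.5 added to both, both at least 1 TPM). Fold changes on these scales understate the change of low levels. P-values were adjusted over all features; the threshold was 0.05. EA against E used 8 lines, without KO and KD. The fits were tested on simulated data, in which the smaller of the simulated shifts was rarely called in the class ratios. The lines pair the libraries, as the libraries compared came from the same cell line; deviations from treatment means correlated at 0.0957 to 0.600 (untreated and E) and 0.108 to 0.739 (E and EA) within lines. No libraries were identical. Per the paper, a dish of a line was given either E or EA, and no replicate dishes of a treatment are described. P-values therefore measure the spread between lines.

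Named were all members, each member's main coding and noncoding transcript and its largest rise and fall, up to 2 genes rising and 2 falling per list, and the 5 genes most like the members. The members, lists and tests were chosen with earlier results of these data known. Further member transcripts named in the text were chosen after their values were seen. Pseudogenes of the members reached at most 0.503 TPM.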

Additional observations from a re-analysis of the deposited data

Results flagged for a closer look

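In 9 of 70 groups of libraries or line differences a library lay far from the rest by Dixon's criterion, where chance gives about 3.5, and PAR was that library in 4. PAR was low in E for SRSF1 (128.7 TPM, the other lines 170.0 to 207) and SRSF3 (165.9 TPM, the others 201 to 240.3), and high for SRSF4 untreated (89.3 TPM, the others 56.9 to 65.0) and with EA (71.1 TPM, the others 48.8 to 53.0). Y643F with E was high for SRSF6 (182.8 TPM, the others 129 to 155). Among log2 differences of the decay and retained intron ratio, WT stood apart for SRSF1 between E and untreated (0.93, the others -0.32 to 0.24), Y821F for SRSF3 between EA and E (0.31, the others -0.19 to 0.05) and Y726F for SRSF4 between EA and E (-1.38, the others -0.26 to 0.71). For the SRSF11 gene level WT stood apart between EA and E (0.27, the others -0.04 to 0.09).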

How the results depend on the processing

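The counts of called member genes, transcripts and ratios stayed within 1.5 times their value in 44 of 45 recomputations with another pseudocount, filter, scaling, class definition, weighting or pairing, and in 54 of 54 with a line left out. The exception was the ratio with decay transcripts alone, which called 5 members in place of 3, adding SRSF4 as higher (0.59) and SRSF5 as lower (-1.10). Without the replicate block 8 genes, 39 transcripts and 4 ratios were called, in place of 9, 46 and 3; EA against E called 0 either way. Of 390 recomputed values of single genes, transcripts and ratios 373 kept direction and call, 7 lost the threshold, 6 gained it and 4 changed sign, none of the last past the threshold: the TRA2A level, EA against E, without mitochondrial genes (0.0060), the SRSF1 ratio with decay only (-0.034) and with centred libraries (-0.045), and the SRSF4 ratio with retained introns only (-0.045). Leaving out each line in turn, 8 of 550 values changed sign. Their ranges were -0.0022 to 0.056 for the SRSF11 level, -0.045 to 0.094 for the SRSF1 ratio and -0.058 to 0.26 for the SRSF11 ratio (E against untreated), and -0.053 to 0.033 for SRSF1, -0.00079 to 0.043 for SRSF6 and -0.047 to 0.035 for TRA2A levels (EA against E). None of these passed the threshold in any recomputation with a line left out. TPM hold no depth, so the counting error behind a value is unknown.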
